A study of Cucumis sativus with 4 samples.

Results

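Fruit spine, trichome and wart regulators of cucumber (Cucumis sativus) were followed in female flower buds through 4 genes, chosen by their identifiers for their published roles. These genes are Csa3G748220 (CsGL1, also called Tbh and Mict), Csa6G514870 (CsGL3), Csa5G577350 (Tu) and Csa4G097650 (CsTTG1). All 4 were listed among the 17480 genes of the deposited table. The table carries identifiers only; the gene names are those in use for these identifiers in cucumber genetics, and their pairing was not checked against sequence. Read as is usual for identifiers of this form, the digit after Csa places CsGL1 on chromosome 3, CsGL3 on chromosome 6, Tu on chromosome 5 and CsTTG1 on chromosome 4.

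RNA was sequenced from 2 female bud libraries of wild type plants (WT) and 2 of the round leaf genotype (rl). Both genotypes came from the source named cucumber 649, of the Southern China type, and were raised untreated in a greenhouse. The study concerns CsPID, whose name refers to PINOID, a plant kinase that steers polar auxin transport, and its title speaks of lateral organs. The labels do not describe the rl allele, the stage of the buds or whether libraries of the same genotype were made from different plants, so the spread behind each p-value is that between libraries and may be technical.

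The ovary of a female cucumber bud bears spines, which are multicellular trichomes, and in warty cultivars the spines sit on tubercules of the fruit skin. CsGL1 and CsGL3 are homeodomain-leucine zipper transcription factors of different classes, HD-Zip I and HD-Zip IV. Loss of CsGL1 gives plants whose trichomes start but do not develop normally, and loss of CsGL3 gives plants without trichomes. CsTTG1 is a WD-repeat protein that promotes the start of spines and binds the CsGL1 protein; its Arabidopsis namesake works in a complex with MYB and bHLH transcription factors. Tu encodes a C2H2 zinc finger protein that is required for warts and acts only where spines are formed.

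The libraries held 17549219 to 18345095 reads over the listed genes, so that 3 reads corresponded to 0.164 to 0.171 CPM (read counts scaled to a library total of 1000000). The regulator genes were covered by between 81 reads (CsGL1 in WT replicate 2) and 540 reads (CsTTG1 in rl replicate 2) in a library. Levels are compared below between libraries for each gene and never between genes, since CPM values do not allow for transcript length. In all, 3.83% of the listed genes stood at least 2-fold apart between the 2 rl libraries on the log2(CPM + 1) scale, against 1.54% between the 2 WT libraries. The identity of the tissue could not be checked against marker genes, because the table pairs no identifier with a name.

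Transcripts of all 4 regulators were detected in every female bud library of both genotypes. Beside CsGL1 (Csa3G748220), 17464 other genes of the 17480 listed were detected in all libraries, so detection says little about the 4. None of the 4 differed between rl and WT at an adjusted p below 0.05 in limma, where 0.0286% of all genes tested passed. At an unadjusted p below 0.05 limma also counted 0 of the 4, against 7.97% of all genes. The edgeR quasi-likelihood test and DESeq2, run on the recovered reads, each called 0 of the 4 both with adjustment (0.0286% and 1.66% of all genes) and without it (8.10% and 7.39%). The CPM values of WT and rl overlapped for each of the 4 genes. Of all genes, 39.5% had no overlap between the genotypes. With only 4 genes, measured in the same libraries, counts of 0 beside these shares say little about them. Female buds are a mixture of tissues, and fewer spine cells and less RNA per spine cell cannot be told apart in them.

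**Figure D1:**
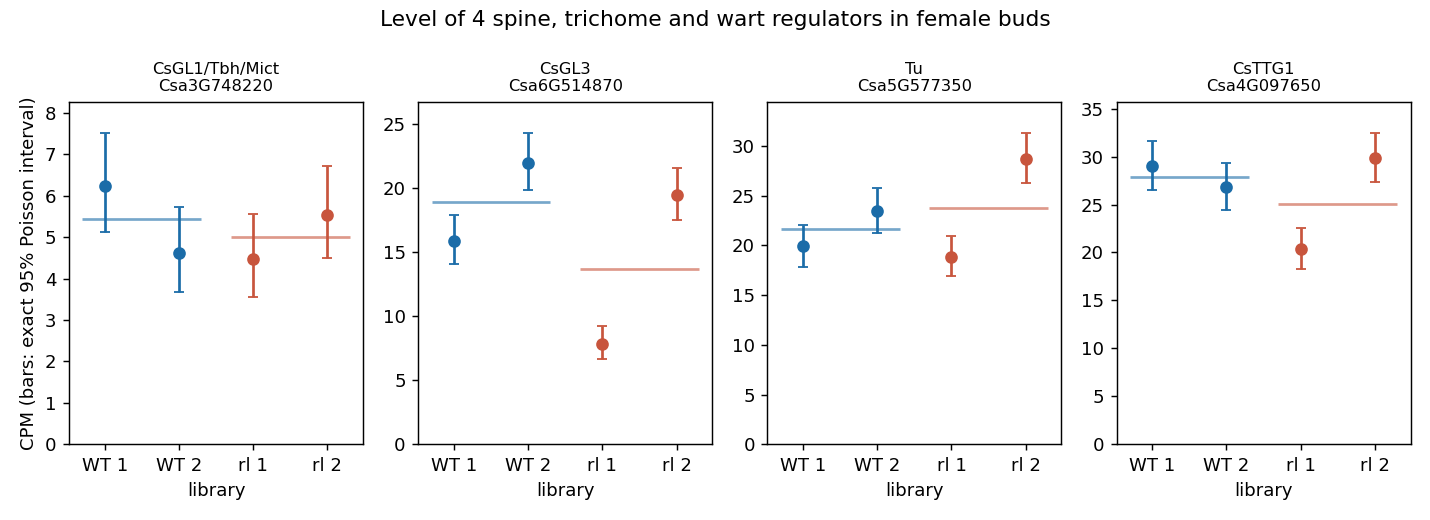
Level of the 4 regulator genes in each female bud library, in CPM on axes that start at 0. Points are libraries (WT replicates 1 and 2, rl replicates 1 and 2), bars are exact 95% Poisson intervals of the read count, and horizontal lines are genotype means. In every panel rl replicate 1 is the lowest library, with 7.85 CPM for CsGL3 against 15.9 CPM or more in the other libraries.

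CsGL1 (Csa3G748220), the HD-Zip I factor needed for trichomes to develop after they have started, measured 6.24 and 4.62 CPM in WT replicates 1 and 2. In rl it measured 4.47 and 5.53 CPM in replicates 1 and 2. The rl values lay inside the WT range or just below it, and the exact 95% Poisson intervals of all 4 libraries overlapped one another. Such intervals cover counting error only. The mean was 5.43 ± 1.15 CPM in WT against 4.998 ± 0.747 CPM in rl (SD, n = 2 each). The rl minus WT difference was -0.09 on the log2(CPM + 1) scale (SE 0.24, 95% interval -0.68 to 0.49, limma adjusted p = 0.944).

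CsGL3 (Csa6G514870), the HD-Zip IV factor without which trichomes are missing, varied most of the 4 genes on the log2(CPM + 1) scale. It measured 15.9 and 22.0 CPM in WT replicates 1 and 2. In rl it measured 7.85 CPM in replicate 1 and 19.5 CPM in replicate 2. The Poisson interval of the low rl library ended at 9.24 CPM, and the lowest of the others began at 14.1 CPM. Intervals without overlap do not single out a library here, since every pair of libraries, the 2 WT libraries included, differed by far more than counting error over all genes. That excess was larger between the 2 rl libraries than between the 2 WT libraries. In CPM of CsGL3 the second rl library fell between the 2 WT libraries. The mean was 19.0 ± 4.31 CPM in WT against 13.7 ± 8.20 CPM in rl (SD, n = 2 each), and the ratio of rl to WT was 0.720. On the log2(CPM + 1) scale the difference was -0.55 (SE 0.41, 95% interval -1.57 to 0.47, limma adjusted p = 0.789), within the spread between replicates. A difference at least as large in either direction was found in 8.40% of all genes.

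The direction for CsGL3 depended on which rl library was counted. Without rl replicate 2 the log2 difference of Csa6G514870 was -1.16, and without rl replicate 1 it was 0.053. Each of these fits holds 1 rl library, so its spread leaves out the gap between the rl libraries. The gene did not pass the limma test at an adjusted p below 0.05 in either fit. Adjusted p over the 15 alternatives for this gene ran from 0.144 to 0.9999. 

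CsTTG1 (Csa4G097650), the WD-repeat partner of CsGL1, measured 29.0 and 26.8 CPM in WT replicates 1 and 2. In rl it measured 20.3 CPM in replicate 1 and 29.8 CPM in replicate 2. The 2 WT libraries were close together, and the rl libraries lay on either side of them. The Poisson interval of rl replicate 1 ended at 22.5 CPM, below the lowest start of the others at 24.4 CPM. The mean was 27.9 ± 1.57 CPM in WT against 25.1 ± 6.72 CPM in rl (SD, n = 2 each). The log2(CPM + 1) difference was -0.17 (SE 0.21, 95% interval -0.70 to 0.36, limma adjusted p = 0.884). It was -0.44 without rl replicate 2 and 0.095 without rl replicate 1, with limma adjusted p of 0.383 and 0.892.

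Tu (Csa5G577350), the zinc finger gene required for warts, measured 19.9 and 23.4 CPM in WT replicates 1 and 2. In rl it measured 18.9 CPM in replicate 1 and 28.7 CPM in replicate 2. Here too the rl libraries lay on either side of the WT pair. The Poisson interval of the higher one, rl replicate 2, began at 26.3 CPM, and the highest end of the others was 25.8 CPM. Tu was the only one of the 4 with a higher mean in rl, at 23.8 ± 6.98 CPM against 21.7 ± 2.49 CPM in WT (SD, n = 2 each). The log2(CPM + 1) difference was 0.11 (SE 0.24, 95% interval -0.48 to 0.69, limma adjusted p = 0.936). Its sign turned without rl replicate 2 (-0.19, limma adjusted p = 0.745) and without WT replicate 1 (-0.0070).

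**Figure D2:**
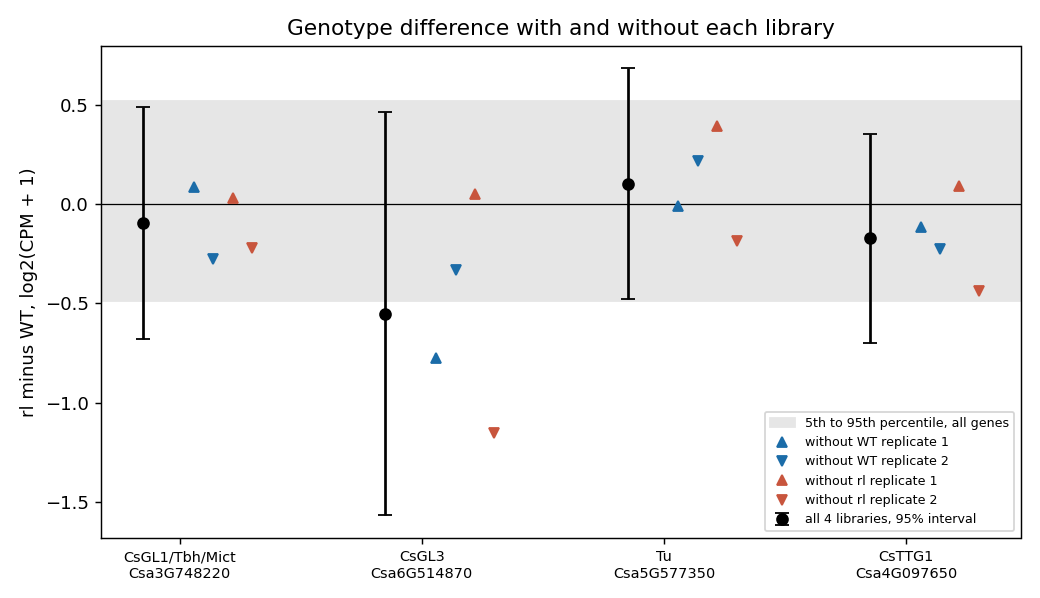
Difference between rl and WT for the 4 regulator genes on the log2(CPM + 1) scale. Black points are limma estimates from all 4 libraries with 95% intervals, triangles are estimates with 1 library left out, and the grey band spans the 5th to the 95th percentile of all genes (-0.49 to 0.52). All 4 intervals include 0. Of all genes, 7.97% had an unadjusted limma p below 0.05 and so an interval without 0. For each of the 4 genes leaving out at least 1 library turns the sign. The share of all genes whose sign turns was not computed. CsGL3 ranges from -1.16 to 0.053.

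The limma intervals show which differences remain possible once eBayes has moderated each gene's spread by that of all genes. Intervals from a gene's own spread alone were not computed. They would be wider for all 4 genes, since each spread would rest on that gene's 4 values alone. The bounds below, and what lies outside them, therefore hold only under that moderation. On the log2(CPM + 1) scale, the lower bounds for CsGL1, Tu and CsTTG1 were -0.68, -0.48 and -0.70. Their upper bounds were 0.49, 0.69 and 0.36. A difference of 1 on this scale, which is 2-fold in CPM + 1 and understates the change of low genes, lay outside these 95% intervals with all 4 libraries. Without WT replicate 2 it did not for 2 of the 3 genes, since the interval of CsGL1 (Csa3G748220) then reached -1.07 and that of Tu (Csa5G577350) 1.02. For CsGL3 the interval reached -1.57, so a difference of -1 lay inside it and one of 1 lay outside it.

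For each of the 4 regulator genes the gap between the 2 rl libraries was larger than the difference between the genotype means on the log2(CPM + 1) scale. The share of all genes with this property was not computed. At equal spread, a gap between single libraries varies more than a difference between means of 2, so this count says little about the 4. All 4 had their lowest level in rl replicate 1, as 31.8% of all listed genes did. The count stayed at 4 after rescaling by the median of ratios or quantile normalization, when the share of all genes was 28.9% and 29.9%. All 4 were higher in rl replicate 2 than in rl replicate 1, by 1.24-fold for CsGL1, 2.48-fold for CsGL3, 1.52-fold for Tu and 1.47-fold for CsTTG1 in CPM. Of all genes, 53.5% were higher in rl replicate 2 on the log2(CPM + 1) scale. The 4 genes share the same libraries, so they are not independent evidence of a difference between those libraries.

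The gap between the rl libraries was 1.21 for CsGL3 on the log2(CPM + 1) scale, and 2.23% of all genes had a gap at least as large in either direction. CsGL3 was the only one of the 4 at least 2-fold apart within rl, where 3.83% of all genes were. The rl gaps of Tu and CsTTG1 were 0.58 and 0.53, with 13.8% and 16.3% of all genes at least as far apart. That of CsGL1 was 0.25, close to the median size over all genes of 0.22. Whether the buds of the 2 rl libraries differed in stage, in tissue makeup or in RNA quality was not tested.

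Between the WT libraries the 4 genes did not all differ in the same direction. CsGL3 and Tu were higher in the second WT library than in the first, with log2(CPM + 1) gaps of 0.44 and 0.22. Of all genes, 14.1% and 38.1% had a gap at least as large in either direction. CsGL1 and CsTTG1 were lower in the second WT library, with gaps of -0.37 and -0.11 and such shares of 19.8% and 65.2%. The gap of CsTTG1 was below the median size over all genes of 0.17. None of the 4 was at least 2-fold apart within WT, where 1.54% of all genes were, so that count says little about them. The WT gap of CsGL1 was larger in size than its rl gap, whereas the other 3 had larger gaps in rl.

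**Figure D3:**
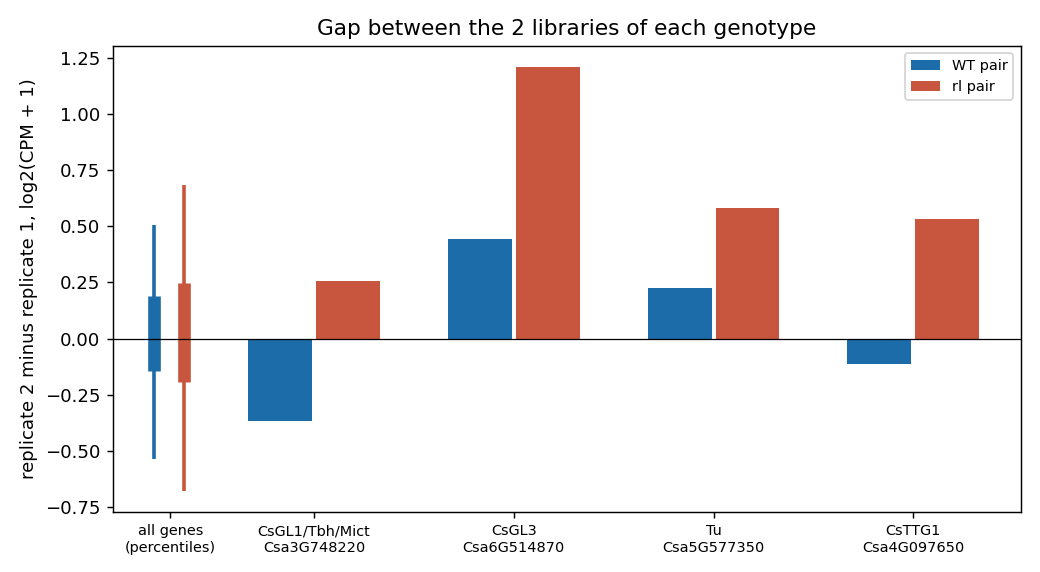
Gap between the 2 libraries of each genotype, replicate 2 minus replicate 1 on the log2(CPM + 1) scale. Bars are the 4 regulator genes (blue for the WT pair, red for the rl pair); at the left, thin lines span the 5th to the 95th and thick lines the 25th to the 75th percentile of all genes. The rl bar of CsGL3 reaches 1.21, beyond the 95th percentile of all genes at 0.68, and all 4 rl bars point up.

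Ratios between the regulators within a library do not depend on how libraries are scaled, and changes in such a ratio do not depend on transcript length. They show unequal change and not which of a pair changed. Of the 6 pairs, 2 had ratios that did not overlap between the genotypes. Over the ratios of each of the 4 genes to every other gene detected in all libraries, 21.9% did not overlap (from 18.1% for CsGL1 to 25.1% for CsTTG1), and the pairs share genes with one another.

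The ratio of CsGL3 to Tu was lower in both rl libraries than in both WT libraries. Its log2 values were -0.32 and -0.091 in WT replicates 1 and 2, and -1.26 and -0.56 in rl replicates 1 and 2. The mean change was -0.71, and it was -0.36 without rl replicate 1. For CsGL3 relative to every gene detected in all libraries, 23.4% of ratios did not overlap. The ratio of Tu to CsTTG1 was higher in both rl libraries, with log2 values of -0.54 and -0.19 in WT and -0.11 and -0.054 in rl, a mean change of 0.29, which was 0.11 without WT replicate 1. For Tu relative to every gene detected in all libraries, the share without overlap was 20.9%. With 2 libraries against 2, an exact permutation test of a ratio cannot give a two-sided p below 0.333, so none was made.

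The ratio of CsGL1 to CsTTG1 was the steadiest of the ratios that involve CsGL1. Its log2 values were -2.22 and -2.54 in WT replicates 1 and 2, and -2.19 and -2.43 in rl replicates 1 and 2, a mean change of 0.068 that ran from -0.092 to 0.23 with 1 library left out. The ratio of CsGL1 to CsGL3 spread more widely, from -2.25 in WT replicate 2 to -0.81 in rl replicate 1. The 2 HD-Zip genes thus stood further apart in some libraries than in others within each genotype, with an SD of 0.64 in WT and 0.71 in rl (n = 2 each).

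**Figure D4:**
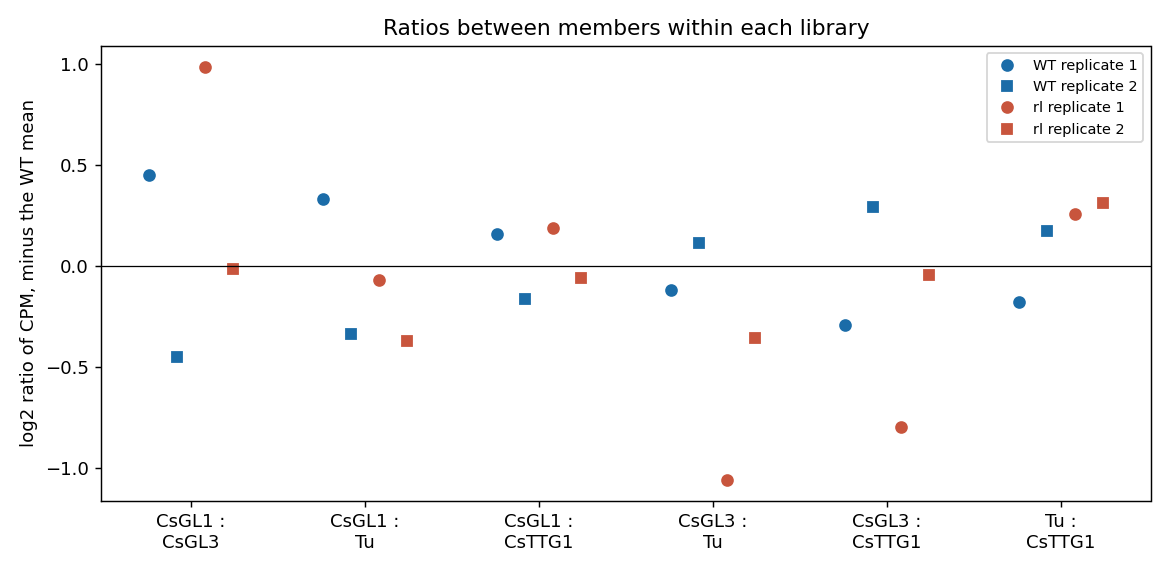
Ratios between the 4 regulator genes within each library, as log2 of the CPM ratio minus its WT mean. Circles are replicate 1 and squares replicate 2, in blue for WT and red for rl. The ratio of CsGL3 to Tu lies lower in both rl libraries than in both WT libraries (mean change -0.71, or -1.06 to -0.36 with 1 library left out), where 23.4% of the ratios of CsGL3 to all other genes had no overlap, and the ratio of CsGL1 to CsTTG1 has a mean change of 0.068 that turns sign with some libraries left out.

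Likeness of pattern over the 4 libraries was measured as the root-mean-square difference between log2(CPM + 1) values centred on each gene's mean. Among the regulators CsGL1 and CsTTG1 were the nearest pair, at 0.139, and Tu and CsTTG1 followed at 0.183. CsGL3 was farther from each of the others, at 0.363 from CsTTG1, 0.404 from Tu and 0.498 from CsGL1. Such a distance grows with a gene's own variation, which was largest for CsGL3, so it does not by itself set the pattern of CsGL3 apart. A distance of 0.139 or less from CsGL1 was found for 12.0% of all genes. As near to CsGL3 as CsTTG1 were 5.41% of all genes, and as near as Tu 10.1%. As near to Tu as CsTTG1 were 19.2%. As near to CsGL1 as Tu were 59.1%, and as near as CsGL3 92.9%. Each share was counted around 1 gene of the pair only.

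Over all genes, the pattern nearest to CsGL3 was that of Csa2G247060, at a distance of 0.063. It measured 70.7 and 98.4 CPM in WT and 35.5 and 93.9 CPM in rl, with the same low value in rl replicate 1. Those nearest to CsGL1, Tu and CsTTG1 were Csa1G042420 (distance 0.012), Csa1G044860 (0.0059) and Csa5G523170 (0.0090). None of these identifiers is paired with a name in the sources used here. Between 46.1% (CsGL1) and 77.8% (CsGL3) of all genes lay at a distance no larger than the residual SD of the regulator itself. A gene with no change over the libraries also meets that cutoff for each regulator. The shares therefore do not count genes of like pattern, and show only that the cutoff is wide.

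The regulator genes lie on different chromosomes and their neighbours were examined for differences along with them. The 5 listed identifiers on either side of each gene, 10 per gene, held 0 genes that passed the limma test between rl and WT, a test that 0.0286% of all genes passed, so a count of 0 says little about them. The lowest limma adjusted p among these neighbours was 0.247, beside CsTTG1. Median log2(CPM + 1) differences of the neighbours were -0.14 for CsGL1, -0.091 for CsGL3, -0.027 for Tu and -0.079 for CsTTG1. Single neighbours ran from -1.50, beside CsGL1, to 1.42, beside Tu. The neighbours of CsGL3 had a median gap between the rl libraries of -0.022, with 5 of 10 higher in rl replicate 2. That median is not a like measure to the gap of 1.21 for the single gene CsGL3. Such medians were 0.15 beside CsGL1 (6 of 10 higher), 0.019 beside Tu and -0.036 beside CsTTG1 (5 of 10 higher each).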

How the data were processed

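Per the labels' protocols, female bud RNA was isolated with Trizol, and libraries were made for an Illumina HiSeq. The submitters' processing notes name HISAT and HTSeq; what is not given in the sources used here is their versions, the build, the annotation and the use of strand, so overlap with other genes or near-identical copies could not be checked. CPM values were deposited for 17480 genes, scaled to the reads on those genes, each with at least 1.01 CPM in at least 2 libraries. Of the values, 100% in each library came to whole reads (tolerance 1e-06), and the recovered reads, 17549219 to 18345095 per library, served the count tests. Every pair of libraries differed beyond counting noise (chi-square per degree of freedom 22.7 to 47.3), so none was taken for a second deposit of another. This does not show that they came from separate plants. The value was 22.7 within WT, 47.1 within rl and 24.7 to 47.3 between the genotypes, where it was lowest for rl replicate 2 against WT replicate 2. The cause was not tested.

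Genotypes were compared with limma 3.58.1 under R 4.3.3, using log2(CPM + 1), eBayes with a mean-variance trend, two-sided, genotype as the only term, Benjamini-Hochberg adjustment over all 17480 genes at 0.05, with a filter of 1 CPM in 2 libraries that removed no gene. Alternatives were edgeR 4.0.16 (quasi-likelihood, TMM), DESeq2 1.42.0, other pseudocounts, filters, scalings and eBayes settings, a replicate block, and leaving out each library. With a library left out, a gene's own spread came from the other genotype's pair only, and eBayes moderated it by the spread of all genes. The tests were tested on simulated data. The genes were chosen with earlier results of these data known. Named besides the 4 genes is the gene nearest in pattern to each, and the ratios, gaps and neighbours were chosen after seeing the data. Other spine regulators and tissue markers, and the RefSeq gene table (0 identifiers matched), were not used here, and no sequence is shown.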

Additional observations from a re-analysis of the deposited data

How the results depend on the processing

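In all 15 alternatives 0 of the 4 regulator genes were called, and apart from leaving out a library none turned a sign. With 1 library left out, the log2 differences ran from -0.28 to 0.089 for Csa3G748220 (CsGL1), from -1.16 to 0.053 for Csa6G514870 (CsGL3), from -0.19 to 0.40 for Csa5G577350 (Tu) and from -0.44 to 0.095 for Csa4G097650 (CsTTG1), and the cause was not tested. Of all genes, limma called 5, DESeq2 291, the replicate block 117, and limma with 1 library left out 0 (WT replicate 1) to 125 (rl replicate 2); the cause was not tested. Under the replicate block the lowest adjusted p of the 4 genes was 0.475, for CsGL3. No label says that the replicate numbers pair libraries, and the WT and rl replicate differences had a correlation across genes of 0.18, with 2 pairs only. At 81 to 111 reads per library, counting error limits CsGL1 most.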
